A study of Mus musculus with 4 samples.

Results

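Adipokines are hormones and signalling proteins released by fat cells, and 10 mouse genes that encode adipokines, their enzymes or their receptors were followed here at the level of open chromatin in inguinal white adipose tissue. The genes were listed by name and role, with earlier results of these data already known, and the rule itself uses no measured value: *Lep*, *Adipoq*, *Retn*, *Cfd*, *Rarres2*, *Nrg4* and *Nampt* on the secreted side, and the receptors *Adipor1*, *Adipor2* and *Cmklr1*. They are 10 of 17196 protein-coding genes that hold at least 1 deposited peak, and each gene's value is the sum of the matrix entries over all peaks on its body and the 2 kb upstream of its start. Together they hold 79 of the 189598 peaks.

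The study profiled single nuclei by ATAC-seq, which marks DNA that a transposase can reach, in inguinal fat of male C57BL/6 mice aged 8 weeks. The 7 groups of 3 mice each were untreated mice kept at room temperature of 22 °C (day0RT), mice kept in the cold at 6.5 °C for 1, 3 or 7 days (day1C, day3C and day7C), and mice given the beta-3 adrenergic agonist CL-316,243 at 1 mg/kg for 1, 3 or 7 days (day1CL, day3CL and day7CL). Per the paper, CL was given at room temperature, so CL and cold mice differ in housing temperature as well as in the drug. The labels name no engineered allele, day0RT is the shared reference of both stimuli, and no group given the vehicle alone was analysed here. The 32552 nuclei of the 21 mice carry the authors' annotation into 12 clusters. Open chromatin was measured and RNA or protein was not. The matrix records only whether a nucleus had signal in a peak, and not how many fragments. A lower value below therefore means that a gene's peaks held a smaller share of the library's entries.

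Leptin, the product of *Lep*, tells the brain how much fat is stored, and adiponectin (*Adipoq*) raises insulin sensitivity through the receptors *Adipor1* and *Adipor2*. Adipsin (*Cfd*, complement factor D) is the protease that starts the alternative complement pathway, chemerin (*Rarres2*) attracts leukocytes through its receptor *Cmklr1*, and resistin (*Retn*) is an adipocyte hormone in mice. *Nrg4* encodes a neuregulin that brown and beige fat release and that acts on ErbB4, and *Nampt* encodes the enzyme that makes nicotinamide mononucleotide for NAD and is also found outside cells.

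Adipocyte libraries held 29 to 933 nuclei and 62318 to 4279964 counts per mouse, white and beige together. The libraries of day1CL mice 1 and 2 stood apart, with 29 and 68 adipocyte nuclei against 654 in mouse 3. Lymphocytes made up 90.8%, 84.1% and 11.9% of all nuclei of these 3 mice. The share was also low in day3CL mouse 2, at 14.1% with 933 adipocyte nuclei, and in day3C mouse 1, at 36.8%. Apart from these mice and day1CL mouse 3, it was 58.2% to 90.8%. The annotated labels were checked against marker genes. Summed adipocyte markers reached 1204 CPM (counts in a gene's peaks, scaled to the library's total count in all peaks) in white and 1178 CPM in beige adipocytes, and the beige markers *Ucp1*, *Cidea* and *Prdm16* together 393 and 650 CPM. The cluster annotated VSMC, for vascular smooth muscle, went against its label and is named by its annotation only. It had 484 CPM of skeletal muscle markers and 96.5 CPM of smooth muscle markers. APC2, annotated as progenitors, had 317 CPM of smooth muscle markers, the highest of the 12 clusters. It had 236 CPM of progenitor markers against 390 CPM in APC1, and is likewise named by its annotation only. Among all nuclei, 4218 barcode sequences occurred in more than 1 mouse and covered 8739 nuclei.

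Of the 5 stretches of sequence shown here, each lies in a member peak with one of the larger differences described below, or holds a motif that few peaks hold. Coordinates are on mm10, every stretch is written 5′ to 3′ on the strand of its gene, and it ends before any exon. Capitals mark exact matches, on either strand, to 4 motifs and to the 6-base half-site that nuclear receptors share, AGGTCA. The *Adipoq* stretch, chr16:23149042-23149341 on the plus strand, covers 300 bases of an intronic peak 2655 bases downstream of the gene start, and its capitals are 2 half-sites. The *Cfd* stretch, chr10:79890556-79890852 on the plus strand, is the part of the peak at the gene start that lies upstream of the first exon. The first *Cmklr1* stretch, chr5:113650427-113650726 on the minus strand, lies just upstream of the gene start, and the second, chr5:113644582-113644881, in an intron 5695 bases downstream. The *Lep* stretch, chr6:29059920-29060219 on the plus strand, ends at the gene start and holds the C/EBP sequence TTGCGCAA in capitals.
Adipoq intron: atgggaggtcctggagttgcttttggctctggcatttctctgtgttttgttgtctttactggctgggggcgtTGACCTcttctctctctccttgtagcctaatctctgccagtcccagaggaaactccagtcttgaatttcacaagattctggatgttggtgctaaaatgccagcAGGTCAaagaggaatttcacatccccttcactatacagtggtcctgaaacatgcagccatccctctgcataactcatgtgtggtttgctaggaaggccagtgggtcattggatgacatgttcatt
Cfd before start: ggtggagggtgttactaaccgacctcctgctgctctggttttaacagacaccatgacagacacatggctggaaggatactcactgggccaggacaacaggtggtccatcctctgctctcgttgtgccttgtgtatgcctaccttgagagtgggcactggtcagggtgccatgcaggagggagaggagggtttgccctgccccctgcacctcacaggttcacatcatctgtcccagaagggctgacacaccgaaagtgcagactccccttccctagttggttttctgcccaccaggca
Cmklr1 before start: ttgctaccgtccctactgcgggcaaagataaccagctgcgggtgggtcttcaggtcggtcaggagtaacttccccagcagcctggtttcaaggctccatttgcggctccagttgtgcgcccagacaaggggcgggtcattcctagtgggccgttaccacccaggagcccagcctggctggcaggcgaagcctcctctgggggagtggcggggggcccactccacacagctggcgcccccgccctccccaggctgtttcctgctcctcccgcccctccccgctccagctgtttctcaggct
Cmklr1 intron: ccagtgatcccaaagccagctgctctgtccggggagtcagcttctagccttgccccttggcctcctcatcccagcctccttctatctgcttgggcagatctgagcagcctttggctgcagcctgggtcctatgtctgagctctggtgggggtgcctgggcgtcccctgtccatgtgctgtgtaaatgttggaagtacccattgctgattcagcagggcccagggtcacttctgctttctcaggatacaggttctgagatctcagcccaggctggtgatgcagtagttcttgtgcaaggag
Lep before start: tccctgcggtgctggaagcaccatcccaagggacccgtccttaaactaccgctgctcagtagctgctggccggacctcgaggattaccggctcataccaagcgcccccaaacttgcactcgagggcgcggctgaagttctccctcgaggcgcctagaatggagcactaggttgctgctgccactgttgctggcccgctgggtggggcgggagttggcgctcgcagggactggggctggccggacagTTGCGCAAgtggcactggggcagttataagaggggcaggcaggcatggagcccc

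The motifs searched in whole peaks were TCAAGGTCA of the ESRR receptors, TTGCGCAA of C/EBP, a direct repeat of AGGTCA with 1 base between the copies for PPAR-RXR, and AGAACA followed after 3 bases by TGTTCT for the NR3C receptors, each on both strands. The ESRR motif was found in 2 of the 79 member peaks, 1 of *Adipor2* (chr6:119373340-119373540) and 1 of *Nrg4* (chr9:55309786-55310578), against 1.14% of the 43122 deposited peaks of 400 to 600 bases. The C/EBP motif was in 1 member peak, that at the *Lep* start, against 0.179% of those peaks. No member peak held the direct repeat or the NR3C motif, which 0.141% and 0.0348% of peaks held. The half-site, which is also part of the ESRR motif and was added after the data had been seen, was in 35 of the 79 member peaks, whose lengths vary, against 31.9% of the 400 to 600 base peaks. A match describes letters in a window and is no evidence of binding.

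Across the 12 clusters, the adipokine genes fell into adipocyte-weighted, stromal and broad patterns. Levels are given as mean CPM over mice ± SD in libraries of at least 10 nuclei. Steps between neighbours in each gene's order were tested by a two-sided sign-flip permutation test of log2(CPM + 1) within mice, adjusted over all 110 steps of the 10 genes, of which 12 passed an adjusted p of 0.05. The clusters were made from these same counts, so the steps describe the annotation and are not independent of it. Clusters further apart in an order were not compared, so a gradual fall can leave every step short of the threshold.

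*Lep* was highest in white adipocytes, at 170 ± 30.1 CPM (SD, n = 21), followed by beige adipocytes at 94.5 ± 35.0 CPM (n = 19). Both steps passed. White adipocytes lay over beige ones in 18 of 19 mice (permutation test, adjusted p = 0.00055). Beige adipocytes lay over APC2, a stromal cluster annotated as progenitors, in 16 of 17 mice (permutation test, adjusted p = 0.00066). From APC2 at 18.0 ± 31.2 CPM down to B cells at 2.64 ± 3.44 CPM no step passed. *Retn* had the same leading cluster, at 78.8 ± 14.0 CPM in white against 36.0 ± 24.7 CPM in beige adipocytes (permutation test, adjusted p = 0.00055), and the step from beige adipocytes to macrophages at 20.1 ± 15.6 CPM did not pass (adjusted p = 0.226, permutation test). *Cfd* followed with 32.2 ± 12.8 CPM in white and 23.4 ± 26.7 CPM in beige adipocytes (permutation test, adjusted p = 0.0292). The step from beige adipocytes to APC2, at 13.4 ± 11.9 CPM, did not pass (adjusted p = 0.295, permutation test). Beige adipocytes were the higher in 8 of 17 mice, and the pooled clusters had 13.6 and 12.8 CPM. *Cfd* counts were low elsewhere. The VSMC cluster had 0 counts, which allows up to 3.91 CPM in the pooled cluster (3 counts, counting error only).

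*Adipoq* was highest in white adipocytes at 121 ± 36.5 CPM and next in beige adipocytes at 101 ± 32.6 CPM, and no step of its order passed (white over beige, adjusted p = 0.142, permutation test). CD4 T cells, next in the order, had 79.1 ± 23.1 CPM and CD8 T cells 62.6 ± 15.5 CPM. Single peaks separated the cell types more sharply than the gene sum. The peak at the gene start, chr16:23146179-23146785, had 27.8 CPM in pooled white and 21.7 CPM in pooled beige adipocytes, and 0 to 3.04 CPM in the other 10 clusters. The peak centred at −1982 bases from the gene start had 27.1 CPM in white adipocytes against 42.2 CPM in CD4 and 40.6 CPM in CD8 T cells, and the intronic peak 5340 bases downstream had 13.7 against 28.6 and 19.8 CPM. In CD4 T cells these outer peaks held 189 and 128 of the gene's 345 counts.

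*Nrg4* was shared by both adipocyte clusters, with a mean of 323 ± 57.2 CPM for beige nuclei and 319 ± 35.5 CPM for white ones, and the white value exceeded that of macrophages, 76.8 ± 33.6 CPM, in 21 of 21 mice (permutation test, adjusted p = 0.00055). *Nampt* led in beige adipocytes, at 47.4 ± 18.1 CPM against 31.3 ± 9.31 CPM in white (permutation test, adjusted p = 0.0142), and white adipocytes were not separated from B cells at 23.1 ± 8.07 CPM (adjusted p = 0.56, permutation test). With libraries of at least 30 nuclei, in 13 mice, the step from beige to white was 0.31 in mean log2 difference and did not pass (permutation test, adjusted p = 0.112). No deposited peak lies within 2 kb of the *Nampt* start, so its value rests on 5 peaks inside the gene. *Rarres2* was the member that did not lead in adipocytes among the secreted factors. It reached 57.5 ± 22.9 CPM in APC1 and 44.9 ± 14.9 CPM in APC2, the clusters annotated as progenitors, against 30.3 ± 6.59 CPM in white adipocytes. The step from APC2 to white adipocytes passed narrowly (permutation test, adjusted p = 0.0496). One of its 3 peaks also counts for *Lrrc61*, and without that peak the step from APC1 to APC2 changed direction, from 0.32 to −0.24 in mean log2 difference, passing in neither case.

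The receptors had separate patterns. *Cmklr1*, the chemerin receptor, was highest in white adipocytes at 226 ± 40.9 CPM, above macrophages at 144 ± 55.4 CPM in 21 of 21 mice (permutation test, adjusted p = 0.00055). In its peaks within 2 kb of the start alone, white adipocytes were the higher in 13 of 21 mice. That step did not pass (permutation test, adjusted p = 0.149). Macrophages and beige adipocytes, 98.4 ± 30.7 CPM, were not separated by this test (adjusted p = 0.905, permutation test). Macrophages were the higher in 15 of 19 mice, and 1 of the 21 macrophage libraries had 0 CPM, which weighs heavily on the log2 scale. APC1 at 76.2 ± 30.2 CPM lay above APC2 at 27.7 ± 23.3 CPM (permutation test, adjusted p = 0.0011). *Adipor2* was led by both adipocyte clusters, with 387 ± 64.1 CPM for beige and 358 ± 66.5 CPM for white nuclei, and white adipocytes exceeded endothelial cells at 196 ± 97.5 CPM in 14 of 15 mice (permutation test, adjusted p = 0.00283). *Adipor1* was the broadest member, from 63.3 ± 26.6 CPM in the VSMC cluster to 31.1 ± 9.90 CPM in white adipocytes, its lowest, and none of its 11 steps passed. B cells, at 54.5 ± 14.3 CPM, were not compared directly with white adipocytes. Per kb of peak, white adipocytes had 23.1 CPM at *Adipor1* and 35.3 CPM at *Adipor2*, so the gap between these genes in summed CPM lies largely in the 2 against 18 peaks they hold.

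**Figure D1:**
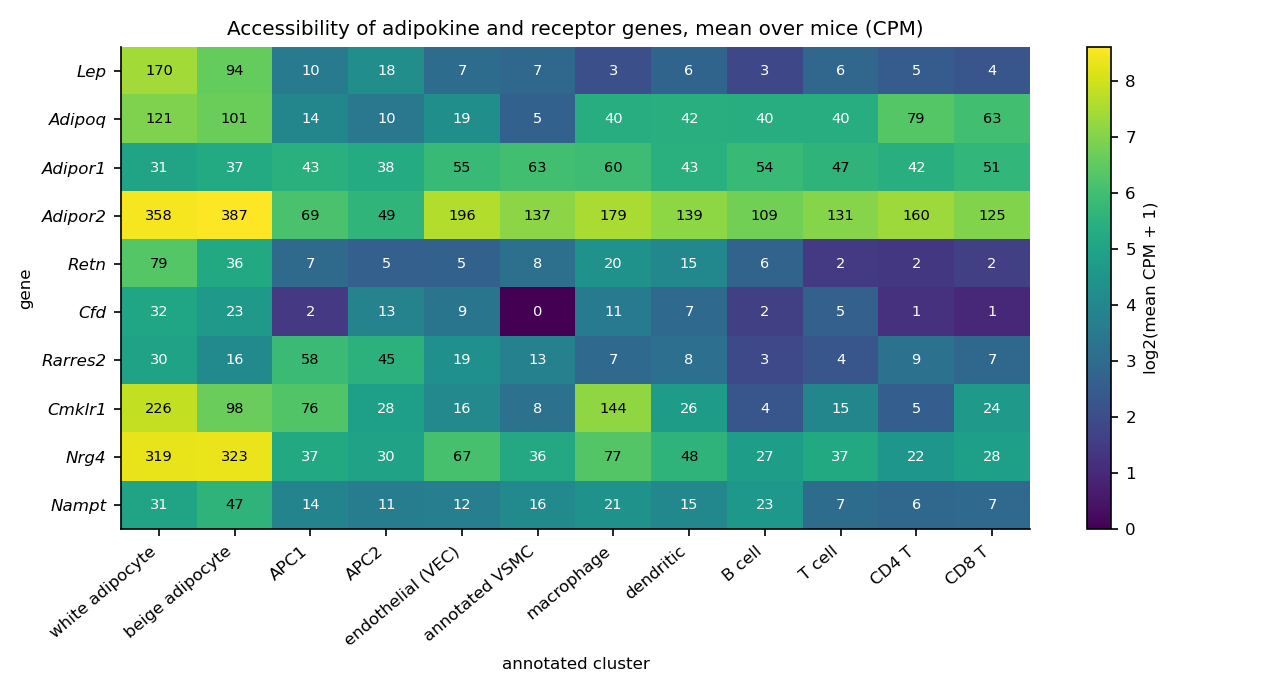
Mean CPM over mice of the 10 genes (rows) in the 12 annotated clusters (columns), printed in each cell and coloured by log2(mean CPM + 1). *Lep*, *Retn* and *Cfd* are brightest in white adipocytes, *Nrg4* and *Adipor2* in both adipocyte columns, and *Rarres2* in APC1 and APC2. *Adipor1* runs from 63.3 CPM in the VSMC column to 31.1 CPM in white adipocytes.

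The genes most like each member over the 12 clusters were listed by Pearson's r of log2(mean CPM + 1), as a description over points that share libraries, among the 14597 genes that reach a mean of 20 CPM in a cluster. For *Nrg4* they were *Adrb3* (r = 0.98), *Klb* (0.96) and *Mrap* (0.96). *Lep* was closest to *Gm49711*, *Zc2hc1b* and *Ces1f* (0.97, 0.97 and 0.96), *Retn* to *Tph2*, *Gm27021* and *Snap91* (0.95, 0.94 and 0.93), and *Cfd* to *Chuk*, *Avl9* and *Sept10* (0.94, 0.94 and 0.93). *Adipoq* lay closest to *Oscp1* (0.94), *Als2cr12* (0.93) and *Pde3b* (0.92), and *Pde3b* had its own highest mean in CD8 T cells. *Rarres2* had *Lurap1l* (0.98), *Dchs2* (0.97) and *Arsj* (0.97), each highest in APC1. Among the receptors, *Cmklr1* had *Ncam2* (0.95), *Siglec1* (0.89) and *Phactr3* (0.89), *Adipor2* had *Samm50*, *Tmbim6* and *Rtp4* (0.94, 0.92 and 0.92), and *Adipor1* had *Lrrc29*, *Dnaic1* and *Capzb* (0.94, 0.93 and 0.92). *Nampt* had *Gm44596* (0.95) and *Ttc25* (0.91).

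The main question of the study is how fat cells change during cold or CL, so white and beige adipocyte nuclei were summed per mouse and each treated group was set against day0RT. Counts were tested with the edgeR quasi-likelihood test over 14429 genes, with adjusted p-values from the Benjamini-Hochberg procedure, and log2 fold changes are given with standard errors (SE). *Adipoq* and *Cfd* were the members with lower accessibility after most treatments. No member passed at day1C (background, 0.34% of all genes), 1 passed at day3C (1.68%), 2 at day7C (5.08%), 3 at day1CL (2.61%), 2 at day3CL (4.77%) and 3 at day7CL (7.81%), all of them lower. These comparisons share the 3 day0RT mice. The median log2 fold change of the 10 members lay between −0.22 and 0.10 in the 6 comparisons, and that of all genes between −0.01 and 0.00.

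*Adipoq* had 214, 159 and 159 CPM in the 3 day0RT mice. The day1C mice had 164, 152 and 120 CPM, overlapping with day0RT, while day3C had 95.1, 92.7 and 127 CPM and day7C 102, 110 and 82.4 CPM. After CL the values were 96.3, 97.2 and 108 CPM at day1CL, 92.2, 96.4 and 108 CPM at day3CL, and 78.7, 83.9 and 124 CPM at day7CL. Every mouse of the last 5 groups lay below the lowest day0RT mouse. The log2 fold change was −0.26 at day1C, which did not pass (adjusted p = 0.541), −0.75 at day3C (SE 0.13, adjusted p = 0.000382), −0.85 at day7C (SE 0.14, adjusted p = 2.34e-05), −0.73 at day1CL (SE 0.16, adjusted p = 0.00414), −0.77 at day3CL (SE 0.13, adjusted p = 4.83e-05) and −0.91 at day7CL (SE 0.14, adjusted p = 1.92e-06). The same 5 comparisons passed in white adipocyte nuclei alone, with log2 fold changes from −0.74 to −0.91. In the 3 peaks within 2 kb of the start alone, the changes were smaller, and those at day3C (−0.39, adjusted p = 0.248), day3CL (−0.47, adjusted p = 0.0621) and day7C (−0.54, adjusted p = 0.0553) did not pass.

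*Cfd* had 61.5, 50.2 and 41.1 CPM in the day0RT mice. It had 43.6, 42.0 and 32.7 CPM at day1C, 29.9, 31.3 and 43.7 CPM at day3C, and 20.2, 21.2 and 21.2 CPM at day7C. The CL mice had 16.0, 22.1 and 14.7 CPM at day1CL, 22.6, 22.8 and 25.5 CPM at day3CL, and 18.1, 27.4 and 22.5 CPM at day7CL. Thus day1C and day3C overlapped with day0RT, and the values of the other 4 groups lay below it, although that of day1CL mouse 1 comes from 1 count. The log2 fold changes were −0.28 at day1C and −0.53 at day3C, neither of which passed (adjusted p = 0.679 and 0.0941), −1.15 at day7C (SE 0.21, adjusted p = 0.000111), −1.55 at day1CL (SE 0.26, adjusted p = 4.25e-05), −0.95 at day3CL (SE 0.18, adjusted p = 0.000305) and −1.12 at day7CL (SE 0.19, adjusted p = 2.79e-05). Without day3C mouse 3 the day3C change passed as well (adjusted p = 0.037). In white adipocyte nuclei alone the day7C change was −0.75 (adjusted p = 0.047), in a group where beige nuclei made up 26.1% to 32.5% of adipocytes against 7.69% to 12.2% at day0RT. DESeq2 gave no adjusted p for *Cfd* in these comparisons.

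The other 2 members that passed did so once. *Cmklr1* had 236, 243 and 224 CPM at day0RT and 112, 181 and 161 CPM at day1CL, where the groups did not overlap (log2 fold change −0.51, SE 0.14, adjusted p = 0.0198). In white adipocyte nuclei alone its change at day1CL was −0.37 and did not pass (adjusted p = 0.174), and the call was also lost without day0RT mouse 2 (adjusted p = 0.0536) or 3 (0.0519). *Rarres2* had 39.9, 33.5 and 27.4 CPM at day0RT and 17.9, 20.2 and 20.1 CPM at day7CL, again without overlap (−0.69, SE 0.21, adjusted p = 0.0287), and in white nuclei alone the change was −0.62 (adjusted p = 0.0704). That call was lost without day0RT mouse 1 (adjusted p = 0.207) or 2 (0.0659) or day7CL mouse 1 (0.279). In peaks within 2 kb of the start alone, *Cmklr1* at day1CL had −0.52 (adjusted p = 0.348) and *Rarres2* at day7CL −0.57 (adjusted p = 0.22). Both calls were also lost in nuclei with at least 2000 counts. *Cmklr1* also lay below day0RT without overlap at day7C and day7CL, and *Rarres2* at day1CL, where mouse 1 had 1 count, and at day3CL, with no call. The share of all genes whose groups do not overlap is not given here. Separations without a call, here and below, therefore describe these mice only. Because day1CL mice 1 and 2 were so small, the day1CL values rest largely on mouse 3. Without mouse 3, *Adipoq*, *Cfd* and *Cmklr1* had log2 fold changes of −0.87, −1.19 and −0.51 and none passed (adjusted p = 0.349, 0.5 and 0.524). With mouse 3 as the only day1CL library, an alternative added after seeing the data that takes its spread from the other groups, the changes were −0.69 (adjusted p = 0.0206), −1.63 (9.63e-05) and −0.51 (0.0497).

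*Lep*, *Retn*, *Nrg4*, *Nampt*, *Adipor1* and *Adipor2* passed in no comparison with day0RT over all mice, and *Adipor2* did at day3CL without day3CL mouse 1 (−0.41, adjusted p = 0.0205). *Lep* had 135, 176 and 140 CPM at day0RT and 115 to 227 CPM over the 18 treated mice, and its log2 fold changes ran from −0.05 at day1CL to 0.36 at day1C (adjusted p = 0.347 for the latter). *Nrg4* had 357, 285 and 315 CPM at day0RT and 289 to 418 CPM in treated mice, and log2 fold changes from −0.07 to 0.19 over the whole gene (lowest adjusted p = 0.565). In its 2 peaks within 2 kb of the start alone, the changes were all positive, from 0.34 at day1C to 0.79 at day7C. None passed (lowest adjusted p = 0.143). Both of these peaks also count for *Tmem266*, so the changes cannot be assigned to *Nrg4* alone. *Retn* had 79.8, 75.4 and 74.0 CPM at day0RT. All 3 day1C mice lay above that range, at 92.2, 92.0 and 98.0 CPM, and all 3 day7C mice below it, at 58.9, 50.7 and 62.4 CPM, yet neither change passed (0.29, adjusted p = 0.568, and −0.35, adjusted p = 0.217). *Nampt* had 33.2, 33.5 and 32.9 CPM at day0RT, 41.7, 38.3 and 45.2 CPM at day3CL and 42.4, 37.1 and 45.0 CPM at day7CL, with log2 fold changes of 0.34 (adjusted p = 0.298) and 0.37 (adjusted p = 0.207). *Adipor1* had 39.9, 41.9 and 34.7 CPM at day0RT and lay wholly below that range at day7C and day3CL without passing, and its 0 counts in day1CL mouse 1 allow up to 48.1 CPM in that small library.

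**Figure D2:**
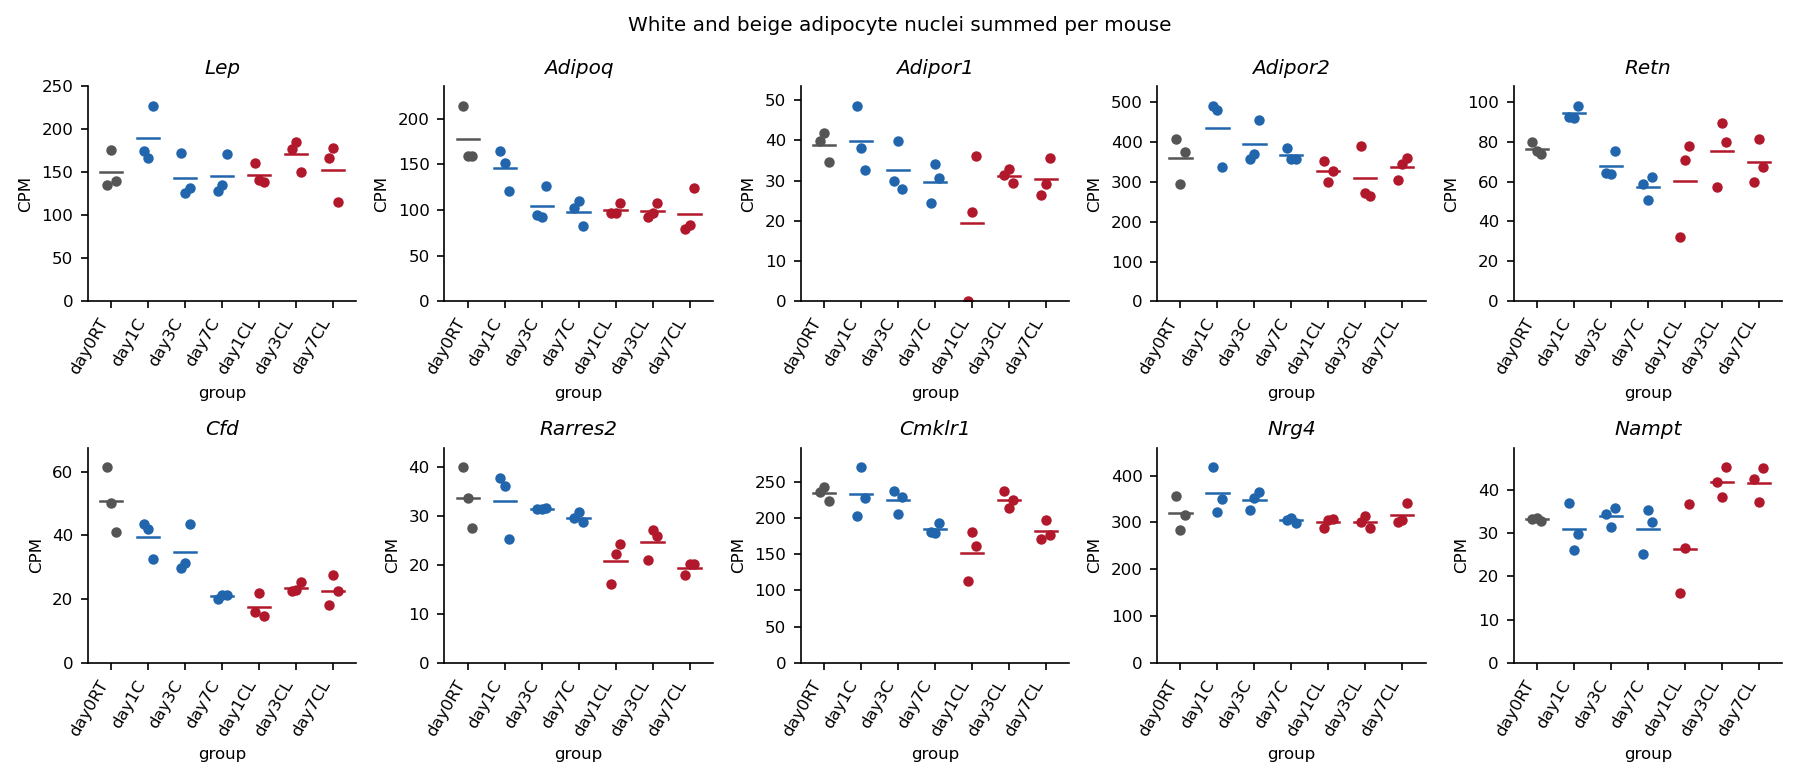
CPM of each gene in white and beige adipocyte nuclei summed per mouse, by group (grey day0RT, blue cold, red CL); points are mice and bars are group means. The *Adipoq* points of day3C, day7C and all CL groups lie below the 3 day0RT points, those of *Cfd* do so in day7C and all CL groups (1 count in day1CL mouse 1), and *Lep* and *Nrg4* overlap throughout.

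Other cell types' markers were measured in the same adipocyte libraries. Several lists are not particular to the cells they are named for. The endothelial list had 672 CPM in endothelial cells but 444 CPM in CD4 T cells. The dendritic list had 770 CPM in dendritic cells but 373 CPM in CD4 T cells. The smooth muscle list had 135 CPM in white adipocytes themselves, and the progenitor list 390 CPM in APC1 and 228 CPM in CD8 T cells. A shift in these lists cannot be assigned to 1 cell type. The sum of 4 B cell markers, none at 0, was 89.3 to 123 CPM at day0RT. It was 64.5 to 111 CPM at day1C, 74.6 to 106 CPM at day3C and 68.1 to 78.6 CPM at day7C. After CL it was 53.0 to 64.2 CPM at day1CL, 78.2 to 91.6 CPM at day3CL and 93.6 to 107 CPM at day7CL. The 4 T cell markers, also none at 0, had 30.7 to 44.9 CPM at day0RT and 16.0 to 41.7 CPM in treated mice. *Cfd* had 2.07 ± 4.25 CPM in B cells and means of 0.943 to 5.18 CPM in the 3 T cell clusters, against at least 14.7 CPM in each adipocyte library. Other lists also left the day0RT range. The 4 smooth muscle markers had 114 to 118 CPM at day0RT and were higher at day7C (121 to 138 CPM), day3CL (148 to 169 CPM) and day7CL (135 to 144 CPM). The 4 dendritic cell markers, at 74.0 to 86.5 CPM at day0RT, were lower at day7C (64.8 to 71.5 CPM) and day3CL (60.9 to 73.8 CPM), and the 4 macrophage markers, at 26.5 to 41.9 CPM, were higher at day3C (42.1 to 57.8 CPM). The 5 adipocyte markers had 1220 to 1428 CPM at day0RT and 1056 to 1209 CPM at day7C, and the 3 beige markers 388 to 501 CPM and, at day1CL, 323 to 385 CPM. The endothelial, progenitor, skeletal muscle and T cell lists overlapped with day0RT in all 6 groups. *Adipoq* had 40.4 ± 9.02 CPM in B cells, and its peak at the gene start 2.03 CPM in pooled B cells. That peak had log2 fold changes of −0.97 at day7CL and −0.72 at day7C, and in white nuclei alone the day7C change did not pass. The part of all these markers in the members' changes was not tested.

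The peaks behind these sums were tested singly over 47835 peaks, 65 of them in member genes. The share of all peaks that passed was 0.213% at day1C, 1.28% at day3C, 3.13% at day7C, 2.06% at day1CL, 3.46% at day3CL and 4.19% at day7CL, and 0, 3, 5, 3, 4 and 6 of the 65 member peaks did. All were lower than at day0RT except 1 of *Cmklr1*. The most regular was the *Adipoq* intronic peak chr16:23149037-23149346, whose sequence is given above. It had 34.9, 25.1 and 29.2 CPM at day0RT and 23.5, 24.0 and 14.9 CPM at day1C, then 6.78, 7.22 and 8.74 CPM at day3C and 9.25, 13.0 and 8.74 CPM at day7C. After CL it had 32.1, 4.42 and 13.5 CPM at day1CL, from 2, 1 and 24 counts, 5.22, 8.03 and 14.5 CPM at day3CL, and 8.02, 7.26 and 16.6 CPM at day7CL. All 12 mice of days 3 and 7 lay below day0RT. Its log2 fold change was −1.84 at day3C (SE 0.27, adjusted p = 3.31e-07), −1.47 at day7C (SE 0.28, adjusted p = 0.000262), −1.42 at day3CL (SE 0.25, adjusted p = 3.85e-05), −1.53 at day7CL (SE 0.26, adjusted p = 1.54e-05) and −1.11 at day1CL (SE 0.31, adjusted p = 0.0306).

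The neighbouring *Adipoq* intronic peak chr16:23149391-23150008 passed at day3C (−1.01), day3CL (−0.95), day7C (−1.15) and day7CL (−1.11). The start peak passed at both 7-day times, with −0.72 (adjusted p = 0.0336) after cold and −0.97 (adjusted p = 0.000945) after CL, and the upstream peak that is also open in T cells only at day7CL (−0.67, adjusted p = 0.0363). At *Cfd*, the start peak chr10:79890556-79891074 had 39.9, 33.5 and 25.6 CPM at day0RT. It had 0, 8.84 and 9.03 CPM at day1CL, from 0, 2 and 16 counts, 10.4, 13.7 and 14.5 CPM at day3CL and 11.4, 16.9 and 10.7 CPM at day7CL. The 0 counts of day1CL mouse 1 allow up to 48.1 CPM, above all 3 day0RT mice, and the other 8 CL mice lay below day0RT, with log2 fold changes of −1.67, −1.08 and −1.19 (adjusted p = 0.000412, 0.00153 and 0.000629). After 7 days of cold the start peak had 16.0, 18.9 and 14.4 CPM (−0.91, adjusted p = 0.0231), and the upstream peak chr10:79889435-79889740 went from 21.6, 16.7 and 15.5 CPM to 4.21, 2.36 and 6.87 CPM (−1.57, adjusted p = 0.00325).

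Single peaks of other members passed in fewer groups. The *Rarres2* start peak, chr6:48571867-48573109, was lower at day7CL (−0.96, adjusted p = 0.0193), and an *Adipor2* intronic peak, chr6:119399233-119400012, at day3CL (−0.81, adjusted p = 0.00205). *Cmklr1* had an intronic peak lower at day1CL (chr5:113637618-113638013, −1.12, adjusted p = 0.0377) and another higher at day3C (chr5:113626376-113626855, 1.34, adjusted p = 0.0169). No peak of *Lep*, *Retn*, *Nrg4* or *Nampt* passed against day0RT. DESeq2, the other tool run, made far fewer calls on single peaks, 0 to 29 of 47835 in each of these 6 comparisons, and among the member peaks it called only the *Adipoq* peak chr16:23149037-23149346 at day3C. With each mouse left out in turn, the calls of that peak at days 3 and 7 and of the upstream *Cfd* peak at day7C stood in all 21 fits. Each of the others was lost in 1 to 5 fits. In white nuclei alone the *Cfd* start peak at day7C had −0.47 and the *Adipoq* start peak −0.49, and neither passed. The upstream *Cfd* peak did not pass at day7C in white nuclei alone either.

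**Figure D3:**
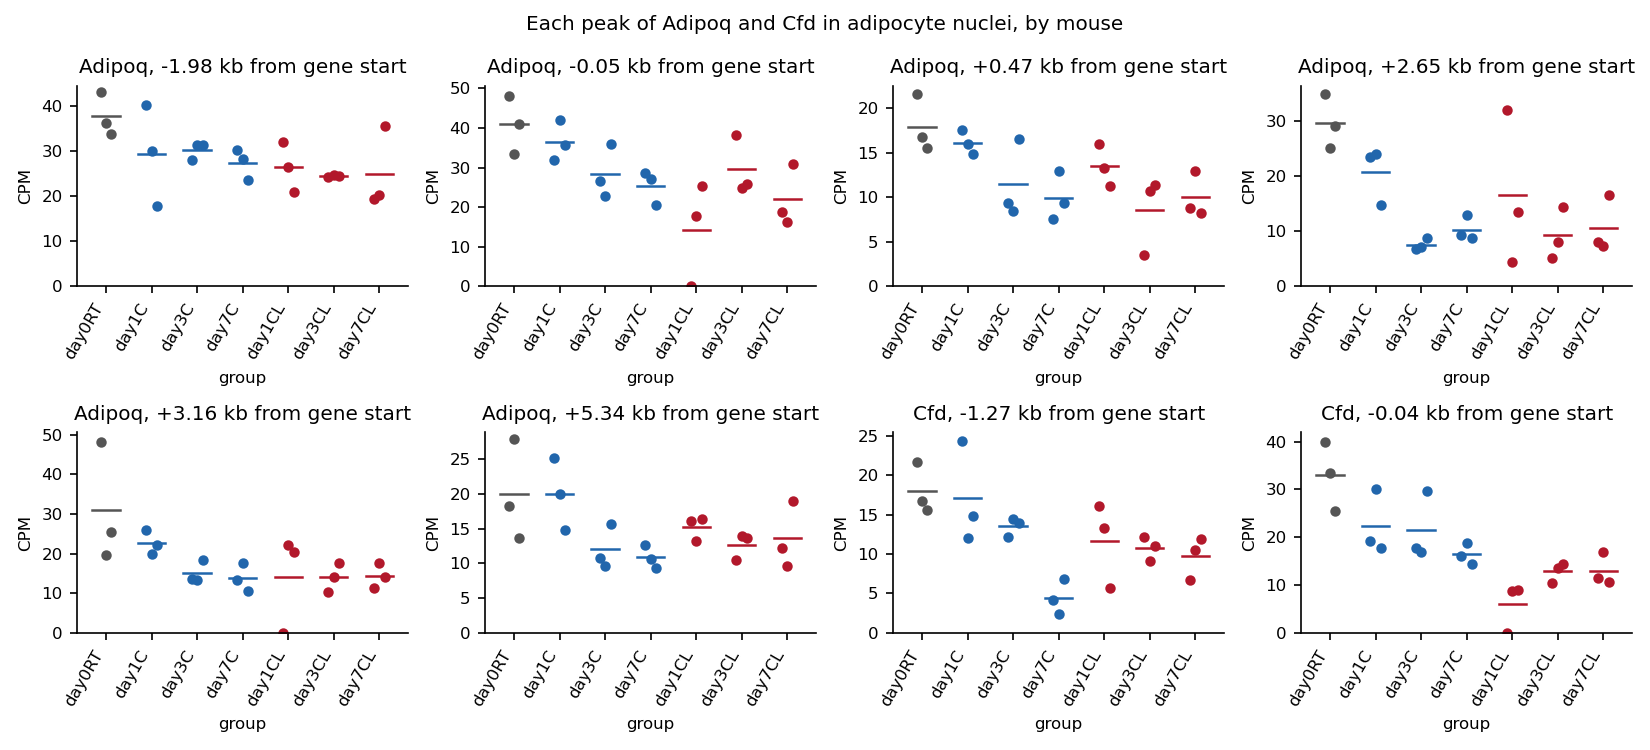
CPM of the 6 peaks of *Adipoq* and the 2 of *Cfd* in adipocyte nuclei by mouse and group, each panel headed by the distance of the peak's middle from the gene start; points are mice and bars are group means. In the *Adipoq* peak 2655 bases downstream, the 12 mice of days 3 and 7 lie below the 3 day0RT mice, and in the *Cfd* peak near the start the CL points do, of which that of day1CL mouse 1 is 0 counts and allows up to 48.1 CPM.

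Cold and CL were then compared on the same day, in the same fit of 21 mice, where the day0RT mice bear on the spread, filter and scaling but are not among the mice compared. *Cfd* separated the stimuli at day 1: the CL mice had 16.0, 22.1 and 14.7 CPM against 43.6, 42.0 and 32.7 CPM in the cold, without overlap but with 1 count behind the 16.0 CPM, and the log2 fold change was −1.27 (SE 0.26, adjusted p = 0.00328). It was the 1 of 10 members that passed, where 0.922% of all genes did. The call was lost without day1CL mouse 3 (−0.90, adjusted p = 0.771) or without day1C mouse 1 (−1.15, adjusted p = 0.0989). DESeq2 gave −1.30 for *Cfd* here and no adjusted p. *Adipor2* passed at day 1 without day1C mouse 3 (−0.59, adjusted p = 0.00748), and *Cmklr1*, at −0.47 with an adjusted p of 0.0565, passed without day0RT mouse 1, day3CL mouse 1 or day7CL mouse 3 (0.0468 to 0.0495). At day 3 *Adipor2*, the adiponectin receptor tied to PPAR-alpha activity in liver, was the 1 member that passed (background 1.46%), with 389, 272 and 265 CPM after CL against 359, 369 and 455 CPM in the cold. One CL mouse overlapped with the cold mice, and the log2 fold change was −0.39 (SE 0.11, adjusted p = 0.0315). In the same libraries the endothelial markers had 74.8 to 103 CPM after CL and 107 to 126 CPM in the cold. The dendritic cell markers had 60.9 to 73.8 CPM and 80.4 to 85.4 CPM. Both lists were without overlap, are not particular to those cells, and their part in the difference was not tested. DESeq2 gave −0.37 for *Adipor2* with an adjusted p of 0.387. With edgeR the call was lost without day3C mouse 3 (adjusted p = 0.337) or day3CL mouse 2 (0.39) or 3 (0.284). Lymphocytes made up 14.1% of the nuclei of day3CL mouse 2, against 78.5% in day3C mouse 3 and 65.9% in day3CL mouse 3. The part of this make-up in the difference was not tested. At day 7, no member passed (background 0.111%), and *Cfd* differed by 0.02 between the stimuli.

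Peak by peak, 0 of the 65 member peaks differed between the stimuli at day 1 (background 0.458%) and at day 7 (0.023%), while 6 did at day 3 (1.79%), all of them in *Adipor2* and all lower after CL. The *Adipor2* peaks lay from 171 to 21732 bases downstream of the gene start, with log2 fold changes from −0.48 to −0.87. The largest was chr6:119401486-119402190, which overlaps an exon (SE 0.20, adjusted p = 0.00469). DESeq2 called none of the 6, without day3CL mouse 2 none passed either, and 2 of them, at 171 and 7658 bases, were lost in 18 of the 21 fits that left out 1 mouse.

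Beige adipocytes were compared with white adipocytes over libraries of at least 10 nuclei, with treatment group as a covariate, and 19 mice have both. The 2 clusters were separated by the authors on these same counts, so the p-values describe the size of a difference against its spread and are no independent test of it. Of 12770 genes, 28.8% passed, and 6 of the 10 members did: *Cmklr1*, *Retn*, *Cfd*, *Rarres2* and *Lep* were lower in beige adipocytes and *Nampt* was higher. The median log2 fold change over the members was −0.48, against 0.01 over all genes.

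*Cmklr1* differed most. In the 19 mice with both, white libraries ranged from 189 through a median of 230 to 294 CPM and beige libraries from 50.4 through 100.2 to 175 CPM. Each of these 19 white libraries lay above the highest beige library (log2 fold change −1.34, SE 0.08, adjusted p = 1.5e-29). The fit held 21 white libraries, and the lowest of them, without a beige partner, had 90.5 CPM. Ranges and medians of the other members are over the same 19 mice. *Retn* ranged from 58.0 through 82.2 to 105 CPM in white and from 0 through 32.7 to 102 CPM in beige adipocytes and was lower in beige in 18 of 19 mice (−1.12, SE 0.12, adjusted p = 7.41e-15). *Lep* had a median of 168 CPM in white and 87.3 CPM in beige adipocytes and was lower in 18 of 19 mice (−0.77, SE 0.09, adjusted p = 2.74e-12). Its gap was not uniform. At day7C the beige libraries had 87.3, 93.9 and 86.4 CPM against 154, 152 and 209 CPM in white. At day7CL they had 156, 135 and 97.2 CPM against 168, 186 and 121 CPM. Whether the gap differs between groups was not tested. *Rarres2* was lower in 18 of 19 mice (medians 32.0 and 15.3 CPM, −0.82, SE 0.14, adjusted p = 1.46e-06), with 0 counts in 3 beige libraries, and *Cfd* in 15 of 19 (medians 28.7 and 16.2 CPM, −0.93, SE 0.16, adjusted p = 9.39e-07). The beige *Cfd* values rest on 0 to 8 counts per library, so its median and tally of mice carry a wide counting error. *Nampt* went the other way in 16 of 19 mice, with medians of 47.6 CPM in beige and 33.6 CPM in white nuclei (0.36, SE 0.10, adjusted p = 0.00523), and did not pass without the day7CL libraries (adjusted p = 0.0714).

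For the remaining 4 members the adipocyte clusters were close. *Nrg4* had medians of 315 CPM in white and 321 CPM in beige adipocytes and was lower in beige in 10 of 19 mice (−0.01, SE 0.06, adjusted p = 0.953). *Adipor2* and *Adipor1* were higher in beige in 14 of 19 mice each, with log2 fold changes of 0.01 and 0.08 that did not pass. *Adipoq* was lower in 13 of 19 mice (−0.19, adjusted p = 0.0952) and passed without the day3CL libraries (−0.27, adjusted p = 0.0241).

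**Figure D4:**
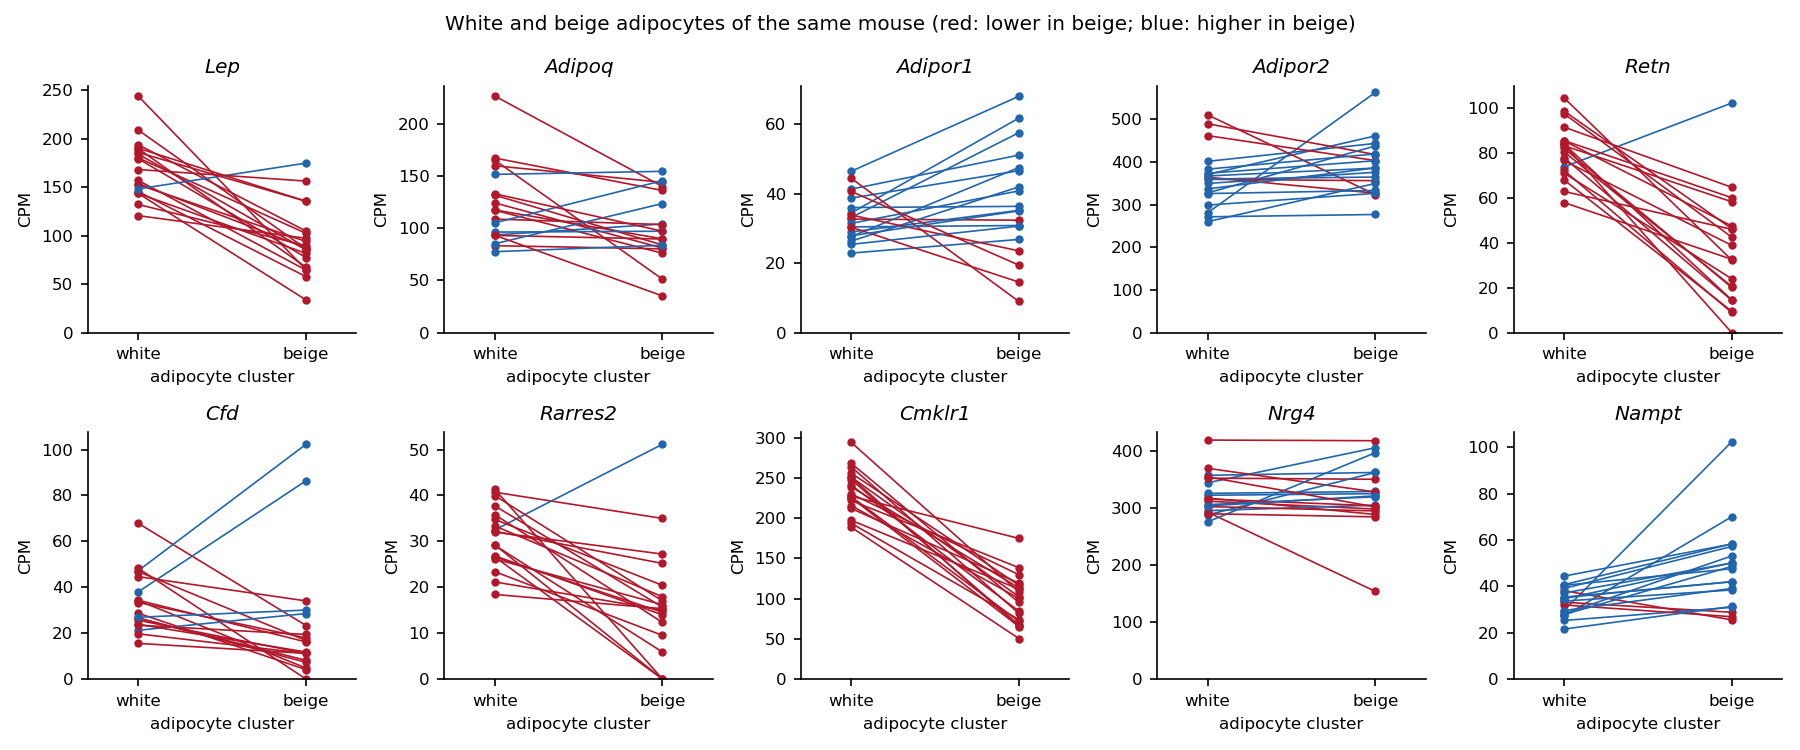
CPM in white and beige adipocytes of the same mouse, 1 line per mouse for the 19 mice with at least 10 nuclei of each (red lower, blue higher in beige). All 19 lines of *Cmklr1* fall, 18 do for *Lep*, *Retn* and *Rarres2*, 16 rise for *Nampt*, and those of *Nrg4* go both ways.

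Of 24854 peaks tested between beige and white adipocytes, 27.2% passed, and 17 of 43 member peaks did, all lower in beige. The start peak of *Cmklr1*, chr5:113650057-113651103, had a log2 fold change of −2.02 (SE 0.17, adjusted p = 1.29e-26) and the intronic peak chr5:113644372-113645090 one of −2.00 (SE 0.19, adjusted p = 9.18e-21), while 3 further peaks of the gene lay between −0.79 and −1.06. Parts of the first 2 are printed above. At *Lep* the difference was smallest at the start, where the peak chr6:29059780-29060780 with the C/EBP match had −0.33 (adjusted p = 0.017), and larger in 4 peaks downstream, up to −1.04 (SE 0.12, adjusted p = 8.4e-15) in chr6:29073250-29075233 over the end of the gene. The *Lep* start peak did not pass without the day3C, day7C or day1CL libraries. The start peaks of *Rarres2* (−1.27), *Cfd* (−1.25), *Retn* (−0.87) and *Adipoq* (−0.38) also passed, the last of these not without the day0RT, day1C, day3C or day7C libraries. *Nrg4*, whose sum did not differ, had 2 lower peaks inside the gene, chr9:55232847-55233569 (−0.69, adjusted p = 6.22e-05) and chr9:55282740-55283264 (−0.41, adjusted p = 0.0381), and *Adipor2* had 1 (chr6:119401486-119402190, −0.46, adjusted p = 0.0349). The second *Nrg4* peak and the *Adipor2* peak did not pass when some treatment groups were left out, 4 and 5 of 7.

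**Figure D5:**
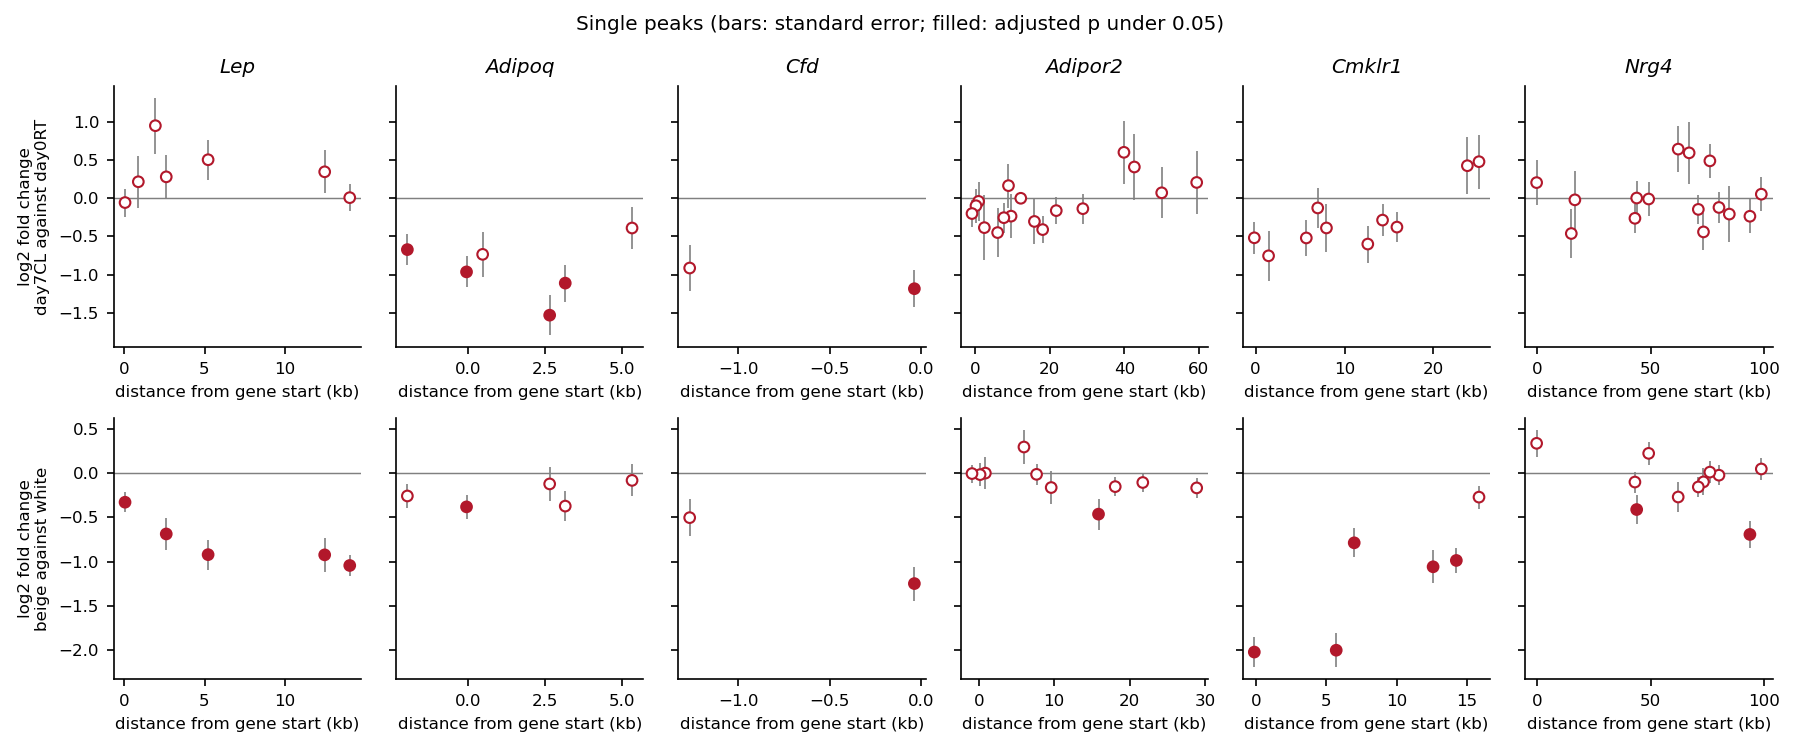
Log2 fold change of single peaks against distance from the gene start in kb for 6 genes, day7CL against day0RT above and beige against white below; bars are standard errors and filled points have an adjusted p under 0.05. *Adipoq* has 4 filled points above, down to −1.53, and *Cmklr1* 5 below, of which 2 lie near −2.00.

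Outside adipocytes, treated groups were compared with day0RT in B cells and macrophages by an edgeR quasi-likelihood F test. In B cells, 2.08% of 11502 genes passed and 0 of the 5 members tested did (*Adipor1*, *Adipor2*, *Nrg4*, *Nampt* and *Adipoq*), with adjusted p from 0.611 to 0.972. At an unadjusted p under 0.05 there were also 0 of the 5, and DESeq2 called 0. With no filter on low counts, *Lep* passed in B cells (adjusted p = 0.0475), at a mean of 2.64 CPM. In macrophages, 0% of 3553 genes passed, against 188 at an unadjusted p under 0.05 and 0 by DESeq2. *Cmklr1* had the lowest p of the 3 members tested there (0 to 241 CPM over mice, median 145 CPM, adjusted p = 0.933).

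The pathways around the members were described with 5 gene lists, by counts over all genes tested. Against day0RT, 0.34% of all genes passed at day1C, 1.68% at day3C and 5.08% at day7C. After CL, 2.61% passed at day1CL, 4.77% at day3CL and 7.81% at day7CL. At these shares a short list with no call differs little from all genes. Of 16 adiponectin and leptin signalling genes, 15 were tested in adipocytes. *Prkaa2*, the catalytic alpha-2 subunit of AMP kinase, was higher at day3CL (0.58), day7C (0.61) and day7CL (0.74, adjusted p = 0.000818), and *Camkk2*, a kinase upstream of AMP kinase, at day7C (0.45, adjusted p = 0.0427). No gene of this list was lower in any comparison with day0RT, and none passed at day1C, day3C or day1CL. Of 7 neuregulin and ErbB genes, 6 were tested, and *Erbb4*, the receptor of *Nrg4*, was higher at day3CL (0.52, adjusted p = 0.0229), day7C (0.67, adjusted p = 0.00239) and day7CL (0.71, adjusted p = 0.000693), with *Nrg2* at day7C (0.51). In the NAD list, 12 of 12 were tested and *Nnmt*, which methylates nicotinamide, was lower at day3CL (−0.40, adjusted p = 0.0477). None of the 5 tested genes of 8 in the chemerin and complement list passed against day0RT.

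Among 23 other secreted adipocyte factors, 20 were tested, and those that passed against day0RT were all lower. Of the 20, 0 passed at day1C, 1 at day3C, 3 at day7C, 1 at day1CL, 3 at day3CL and 2 at day7CL. These counts are read against the shares of all genes given above. *Angptl4*, an inhibitor of lipoprotein lipase, was lower at day1CL (−0.71), day3C (−0.97), day3CL (−0.80), day7C (−1.07, adjusted p = 1.39e-05) and day7CL (−0.95). *C1qtnf1*, an adiponectin paralogue, was lower at day3CL (−0.62), day7C (−0.66) and day7CL (−0.67), and *Vegfa* at day3CL (−0.35) and day7C (−0.42). Between the stimuli at day 3, where 1.46% of all genes passed, *Agt* was higher (0.77) and *Igf1* lower (−0.54) after CL.

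Between beige and white adipocytes, 12 of 18 tested secreted factors passed, where 28.8% of all genes did, 7 higher and 5 lower in beige, led by *Bmp8b* (1.93), *C1qtnf3* (1.56), *Pm20d1* (1.11) and *Rbp4* (−0.86). *Cdh13*, the T-cadherin that binds adiponectin, was lower in beige adipocytes (−0.99, adjusted p = 9.06e-18), while *Stk11* (0.42) and *Prkaa2* (0.22) were higher, out of 15 tested. Complement factor B, *Cfb*, which the product of *Cfd* cleaves, was lower (−1.70, SE 0.18, adjusted p = 7.72e-14), as 1 of the 2 genes tested of its list. The remaining lists are read against the same 28.8%. In the NAD list, *Cd38* (−0.91) was among 4 lower genes and *Sirt3* (0.51) was the 1 higher, out of 12. In the neuregulin list, *Nrg3* (−0.59), *Egfr* (−0.59) and *Nrg1* (−0.31) were lower and *Nrg2* (0.30) higher, out of 6. In B cells, *Cdh13* (adjusted p = 0.000601) and *Erbb4* (adjusted p = 0.0107) passed the test over groups, and no list gene did in macrophages.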

How the data were processed

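The deposited peak-by-nucleus count matrix, with entries of 0 or 1, was used as the authors made it. Per the submitters' processing notes, Bowtie2, SAMtools, MACS2 and Signac were used with mm10, and mouse, group and cluster came from the authors' deposited metadata, since each of the 4 deposited samples is a lane that holds all treatments. Counts were summed over nuclei per mouse and cluster and, per GENCODE vM21 protein-coding gene, over peaks on the body and 2 kb upstream. A peak may count for several genes. Libraries needed 10 nuclei.

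Genes and peaks were tested with edgeR 4.0.16 (R 4.3.3), by TMM scaling, filterByExpr (minimum count 10, total 15, proportion 0.7), glmQLFit and glmQLFTest, two-sided, with Benjamini-Hochberg adjustment over all features and a threshold of 0.05. Adipocyte fits held 21 mice. The procedure was tested on simulated data. Alternatives were DESeq2 1.42.0, other filters, peak sets, nuclei, scaling and blocks, and leaving out each mouse. A missing adjusted p of DESeq2 was kept as missing and counted as no call. White and beige libraries of 1 mouse come from the same animal, so the mouse was tried as a block there. Cluster steps used sign-flip permutations, exact under 10 mice and with 100000 draws otherwise.

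Members and lists were chosen with earlier results of these data known. All members are named, with up to 4 called genes per list and comparison, the 3 genes most like each member (1 of them is not reported here), and each called peak. Fewer counts per library leave wider errors, and limits for 0 counts cover counting error only. Sequences are from RefSeq GRCm38.p6, the assembly behind mm10. The study's reporting summary states that its 3 batches of experiments were done independently. No source used here ties a mouse to a batch, so no batch term was fitted, and p-values measure the spread between mice, batches included.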

Additional observations from a re-analysis of the deposited data

Results flagged for a closer look

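Among the members, *Cfd* at day 1 and *Adipor2* at day 3 passed a direct test of CL against cold on the same day in adipocytes. Of all genes, 0.922% passed at day 1 and 1.46% at day 3. DESeq2 called neither member, and it gave no adjusted p for *Cfd*. *Cfd*, which encodes adipsin, had a log2 fold change of −1.27 at day 1 (edgeR, adjusted p = 0.00328), with 3 of 3 CL mice below all 3 cold mice, 1 of them with 1 count, and the call rested on day1CL mouse 3 and day1C mouse 1. In the same libraries the B cell markers had 53.0 to 64.2 CPM after CL and 64.5 to 111 CPM in the cold, the adipocyte markers 1075 to 1228 and 1426 to 1582 CPM, and the progenitor markers 32.1 to 75.1 and 78.7 to 82.0 CPM, all without overlap, and their part in the difference was not tested. *Adipor2*, an adiponectin receptor, had −0.39 at day 3 (edgeR, adjusted p = 0.0315), with 2 of 3 CL mice below all 3 cold mice. The call was lost with DESeq2 (adjusted p = 0.387) and with promoter peaks only (edgeR, adjusted p = 0.316). With edgeR it was also lost without day3C mouse 3, or without day3CL mouse 2 or 3. In the same libraries the B cell markers had 78.2 to 91.6 CPM after CL and 74.6 to 106 CPM in the cold. The endothelial markers, at 74.8 to 103 CPM after CL and 107 to 126 CPM in the cold, did not overlap. Nor did the dendritic cell markers, at 60.9 to 73.8 and 80.4 to 85.4 CPM. The part of both lists was not tested, and the endothelial, dendritic and progenitor lists are not particular to those cells.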

How the results depend on the processing

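No called member changed direction under an alternative (0 of 13 differences in adipocytes and 0 of 6 between beige and white). Of those not called, 37 of 77 and 2 of 4 took both signs. An example was *Nrg4* at day7C, at −0.06 and, with promoter peaks only, 0.79. Those promoter peaks also count for *Tmem266*. Counts of members called changed with DESeq2 to 0 for CL against cold at day 1 and at day 3 and to 1 each for day3CL, day7C and day7CL against day0RT, and with promoter peaks only to 0 for day3C and for CL against cold at day 3 and to 1 each for day3CL and day7C. Promoter peaks only also lost the call of *Cmklr1* at day1CL and that of *Rarres2* at day7CL. In the counts of members called, a missing adjusted p of DESeq2 stands as no call. Among the differences called with edgeR, it was missing for *Cfd* in CL against cold at day 1 and at day1CL, day3CL, day7C and day7CL. It was also missing for *Rarres2* at day7CL. At day1CL the DESeq2 calls were *Adipoq* and *Cmklr1*. Own peaks only gave 2 for CL against cold at day 1, white nuclei only gave 2 at day 3, and no filter gave 1 in B cells. Counts of member peaks called became 0 with DESeq2 for day1CL, day3CL, day7C, day7CL and CL against cold at day 3, and 1 for day3C. With no filter they were 1 for day1CL, 1 for day3C, 2 for day3CL, 3 for day7C and 2 for CL against cold at day 3, where the replicate block gave 3. White nuclei only gave 1 for day1CL and 2 for day7C. Libraries of at least 100 nuclei, chosen after seeing the data, gave 1 for day1CL. Between beige and white adipocytes, member peaks called were 45 with no filter, 11 without the day3C libraries and 10 without the day7C libraries. Members whose highest cluster differed from the next numbered 3 with promoter peaks only, against 5. There the steps of *Cmklr1* (adjusted p = 0.149) and *Lep* (0.0511) did not pass, and that of *Adipoq* did (0.0457, permutation tests). *Nampt* has no promoter peak. The causes of the other changes were not tested.

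With each mouse left out in turn, members called ranged from 0 to 3 for day1CL, 0 to 2 for CL against cold at day 1, 1 to 2 for day3C and 0 to 1 for CL against cold at day 3, and member peaks called from 0 to 3 for day1CL, 0 to 1 and 0 to 6 for CL against cold at day 1 and day 3, 1 to 3 for day3C, 2 to 6 for day3CL, 2 to 5 for day7C and 1 to 7 for day7CL. Of 1931 other values, 1699 kept their side of the threshold, 193 lost a call and 39 gained one.

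Over all genes in adipocytes, DESeq2 called 9, 53, 300, 145, 176 and 234 at day1C, day3C, day7C, day1CL, day3CL and day7CL, against 49, 242, 733, 377, 688 and 1127 with edgeR, promoter peaks 0 to 128 in each, and white nuclei 27, 150 and 253 in the cold groups. For CL against cold, DESeq2 called 11, 17 and 0 genes and promoter peaks 34, 69 and 0, against 133, 210 and 16. In B cells DESeq2 called 43 genes against 239. Over all peaks, no filter called 6 to 835 and white nuclei 43 to 1075 against 102 to 2003 in the 6 comparisons with day0RT. Between beige and white, promoter peaks called 1090 genes, against 3673, and no filter 44231 peaks, against 6752.

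Whether replicate numbers pair the mice was described without a test. Over 63 same-numbered pairs the correlation of deviations ran from −0.123 to 0.116, with a median of 0.0013 against 0.0004 for different numbers. Their own number was the best match of 10 of 21 mice, and the number to be met by chance was not worked out. The replicate block called 25 genes at day1C, against 49, and 909 at day7CL, against 1127. It called more at day1CL, 432 against 377, and for CL against cold at day 7, 32 against 16. The mouse block called 3825 genes and 9751 peaks between beige and white and changed no member gene's call. Small adipocyte libraries at day1CL limit what could be detected there.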
